A study of Homo sapiens with 5 samples.

Results

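Of the 80323 peaks of RNA:DNA hybrid signal deposited for PC-9 cells, 10157 (12.6%) lay beside or within centromeres and had little imbalance between G and C. They were chosen by position and sequence alone. The midpoint of a peak had to fall in 1 of 12 windows around the centromeres of chromosomes 1, 2, 4, 5, 7, 9, 10, 16, 17, 19, 20 and 22 (build GRCh38, 122 Mb in all), and the deposited GC skew had to lie between −0.4 and 0.4. GC skew was taken as the excess of G over C on the reference strand divided by their sum. No read count, fold enrichment or p-value entered the choice.

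PC-9 is an established human lung adenocarcinoma cell line. The assay was DRIP-seq, in which sonicated genomic DNA is precipitated with S9.6, an antibody against RNA:DNA hybrids. There were 2 control libraries and 2 libraries labelled exp, which were taken as the knockdown of FANCI that the series' design text names, and 1 input library that was counted over the peaks of all 4. FANCI is a Fanconi anaemia protein and the partner of FANCD2 in interstrand crosslink repair. The labels give no agent, dose, time or clone for the knockdown. The level of FANCI could not be checked, because no RNA or protein measurement was used here. The labels also do not say whether the libraries of a group came from separate cultures, so the p-values below measure only the spread between these libraries, which may be technical.

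An R-loop forms when a transcript pairs with its template strand and leaves the other strand single. R-loops are best known at gene starts, where a G-rich transcript pairs with a C-rich template, which is what a strong GC skew marks. Pericentromeric DNA is instead made largely of tandem satellite repeats that carry few genes, are packed as heterochromatin and are transcribed at a low level in many cells. Reads from near-identical satellite copies are hard to place on a genome assembly. How the aligner treated reads that fit several places is not given in the sources used here, and the position of a read within such an array is uncertain for every value below.

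The lists held 25281 and 23903 peaks in control 1 and 2, and 16785 and 14354 in exp 1 and 2. Over all their peaks the libraries had 1266127, 1001453, 801196 and 646455 DRIP reads in the same order, and whole library totals were not used here. Each library was counted over its own peaks, without scaling for depth, so a DRIP count per input read can be compared between sets of peaks within a library but carries the library's depth between libraries.

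No repeat annotation was used, and the sequences that could be read belong to RefSeq promoters (GRCh38.p14, 250 bases before to 50 after a start). Of 431 such promoters in the windows, 9 were overlapped by a low-skew peak, and the 4 below were overlapped in the most libraries. They are shown as examples of promoter DNA under these peaks, 5′ to 3′ on the strand of the gene. Most low-skew peaks (87.5%) lay in long stretches without a RefSeq gene, whose sequence was not at hand. The 4 promoters do not stand for those. Capitals mark runs of at least 3 G or 3 C, which 96.7% and 96.2% of all 35116 promoters of the table also hold.
FAM230F, chr22:18892922-18893221, minus strand: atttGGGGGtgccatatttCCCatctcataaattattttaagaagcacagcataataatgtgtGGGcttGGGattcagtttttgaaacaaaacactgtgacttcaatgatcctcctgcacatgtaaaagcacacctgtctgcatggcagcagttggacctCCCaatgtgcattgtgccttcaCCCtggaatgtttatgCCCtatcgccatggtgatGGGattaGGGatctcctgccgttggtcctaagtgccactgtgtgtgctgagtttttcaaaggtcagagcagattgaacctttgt
FAM230F, chr22:18894382-18894681, minus strand: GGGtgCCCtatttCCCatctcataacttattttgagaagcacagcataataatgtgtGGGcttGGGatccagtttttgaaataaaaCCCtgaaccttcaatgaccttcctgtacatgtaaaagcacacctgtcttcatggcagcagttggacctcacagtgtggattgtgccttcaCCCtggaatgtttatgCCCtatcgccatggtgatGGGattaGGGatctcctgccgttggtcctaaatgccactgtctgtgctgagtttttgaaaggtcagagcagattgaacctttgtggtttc
LOC107987246, chr17:22383772-22384071, plus strand: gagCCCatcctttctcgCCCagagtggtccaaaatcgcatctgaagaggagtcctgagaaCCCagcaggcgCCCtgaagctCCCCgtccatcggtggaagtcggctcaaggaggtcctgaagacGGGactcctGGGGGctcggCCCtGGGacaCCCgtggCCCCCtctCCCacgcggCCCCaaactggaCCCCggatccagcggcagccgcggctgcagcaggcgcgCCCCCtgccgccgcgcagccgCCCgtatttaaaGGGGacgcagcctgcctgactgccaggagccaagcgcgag
LOC124901639, chr7:56824607-56824906, minus strand: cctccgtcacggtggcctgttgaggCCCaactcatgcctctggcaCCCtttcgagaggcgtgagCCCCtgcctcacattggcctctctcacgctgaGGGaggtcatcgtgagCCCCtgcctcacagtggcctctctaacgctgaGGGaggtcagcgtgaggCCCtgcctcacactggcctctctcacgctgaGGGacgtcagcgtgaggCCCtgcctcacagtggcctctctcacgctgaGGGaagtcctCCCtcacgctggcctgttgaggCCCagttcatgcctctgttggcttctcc

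The FAM230F promoters are near copies of each other. They were 89.7% identical end to end, differed by 31 edits and lay under the same peak in each library. Their GC content was 45.0% and 45.7%, with 5 runs of G on each and 4 and 5 runs of C. The LOC124901639 promoter holds an internal repeat: the word ccctgcctcaca, its commonest run of 12 bases, occurs 4 times in it. The LOC107987246 promoter was the richest of the 4 in GC, at 68.7%, and carried 13 runs of C against 4 of G and 25 CpG sites. On their own strand the skews of the 4 promoters were 0.0370, 0.0219, −0.0874 and −0.125.

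There were 3208 low-skew pericentromeric peaks in control 1 and 2384 in control 2, against 2050 in exp 1 and 2515 in exp 2. Control 1 was highest and exp 1 lowest, and the groups overlapped, because exp 2 lay above control 2. The means were 2796 ± 583 in control and 2282 ± 329 in exp (SD, n = 2), a ratio of 0.816 (exact two-sided permutation test, p = 0.667). With 2 libraries against 2 this test cannot go below 0.333. All other peaks numbered 22073, 21519, 14735 and 11839, a ratio of 0.610, and there both exp libraries lay below both controls (exact permutation p = 0.333, the smallest possible).

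Their share of a library's peaks was 12.7% for control 1, 9.97% for control 2, 12.2% for exp 1 and 17.5% for exp 2. Exp 2 stood highest and control 2 lowest, and the groups overlapped (mean difference 3.54 percentage points, exact permutation p = 0.667). The bases they covered came to 5.32, 3.42, 2.98 and 3.88 Mb in control 1, control 2, exp 1 and exp 2, again with exp 2 above control 2 (ratio 0.785, exact permutation p = 0.667). When the 14354 best peaks by q of each library were taken, the ratio of peak numbers turned to 1.85 and that of bases to 1.34. The direction of the difference therefore depended on how the lists were cut, and no change between control and exp can be stated from the number of peaks.

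Peaks of the same windows with strong skew, 0.4 or more in size, were the nearest comparison. They numbered 406, 163, 218 and 256, and control 1 was far above the rest. For each of them there were 7.90, 14.6, 9.40 and 9.82 low-skew peaks in control 1, control 2, exp 1 and exp 2. Both exp values lay between the controls (ratio 0.854, exact permutation p = 1).

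By window, chromosome 7 (56 to 63 Mb) held the most, with 523, 431, 347 and 432 peaks in control 1, control 2, exp 1 and exp 2. Exp 2 lay just above control 2 there, so the groups overlapped. Chromosome 20 (25 to 32 Mb) held 482, 311, 208 and 298, both exp libraries being below both controls. Chromosome 1 (a window of 23 Mb) held 371, 312, 220 and 308, with the same order of groups and exp 2 close under control 2. Chromosome 9 (39 to 68 Mb) held 211, 106, 184 and 196, where control 2 alone was low. The fewest were on chromosome 4 (48 to 52 Mb), with 73, 39, 55 and 63 peaks.

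Both exp libraries were below both controls in 6 of the 12 windows (chromosomes 1, 2, 16, 17, 20 and 22), against 92.0% of the 25 chromosomes for all other peaks. The groups overlapped in the other 6, and in none were both exp libraries above.

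**Figure D1:**
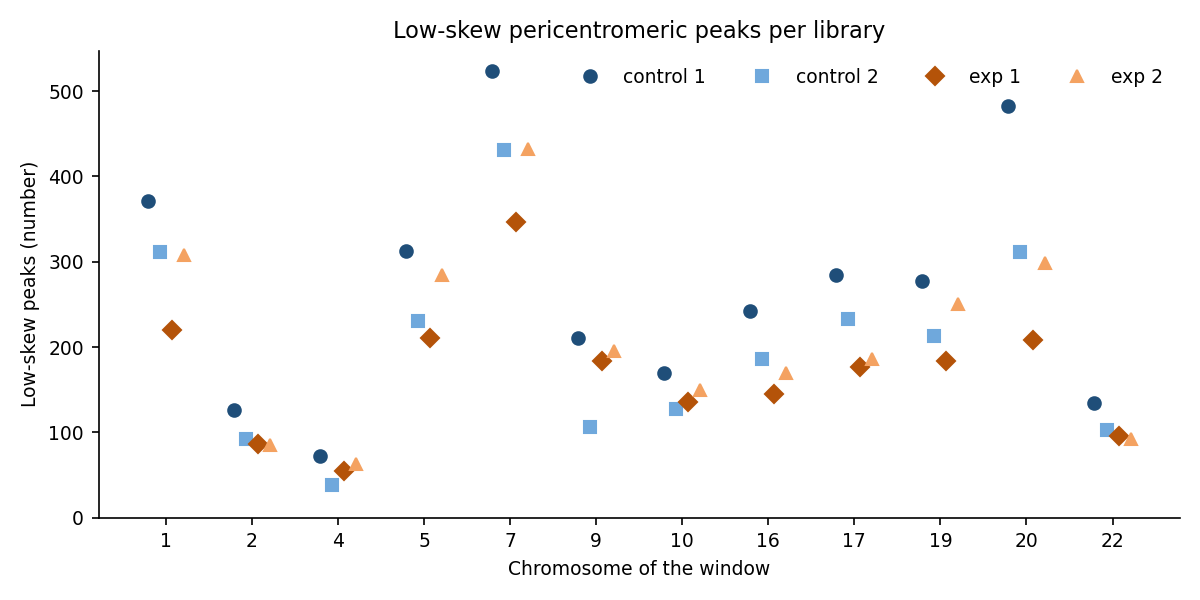
Number of low-skew pericentromeric peaks (vertical axis) in each of the 12 windows, named by chromosome (horizontal axis), with 1 point per library. Control 1 is the highest point in every window, and in 6 windows the exp and control points overlap.

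Most of these peaks lay where RefSeq has no gene. Stretches of more than 0.5 Mb without a RefSeq gene held 89.1%, 82.3%, 87.3% and 90.8% of them in control 1, control 2, exp 1 and exp 2, and 8892 (87.5%) in all. Strong-skew peaks of the same windows lay there in 27.3%, 25.2%, 31.2% and 28.5%. The low-skew share was thus higher in 4 of 4 libraries, by 59.3 ± 3.14 percentage points (SD, n = 4; exact two-sided sign permutation over libraries, p = 0.125, the smallest that 4 libraries allow). The label of pericentromeric peaks was borne out least on chromosomes 2 and 22, where the gene-free stretch held 54.4% and 63.8% of the window's low-skew peaks. It held 99.8% on chromosome 5, 99.7% on chromosome 19 and 98.5% on chromosome 1.

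**Figure D2:**
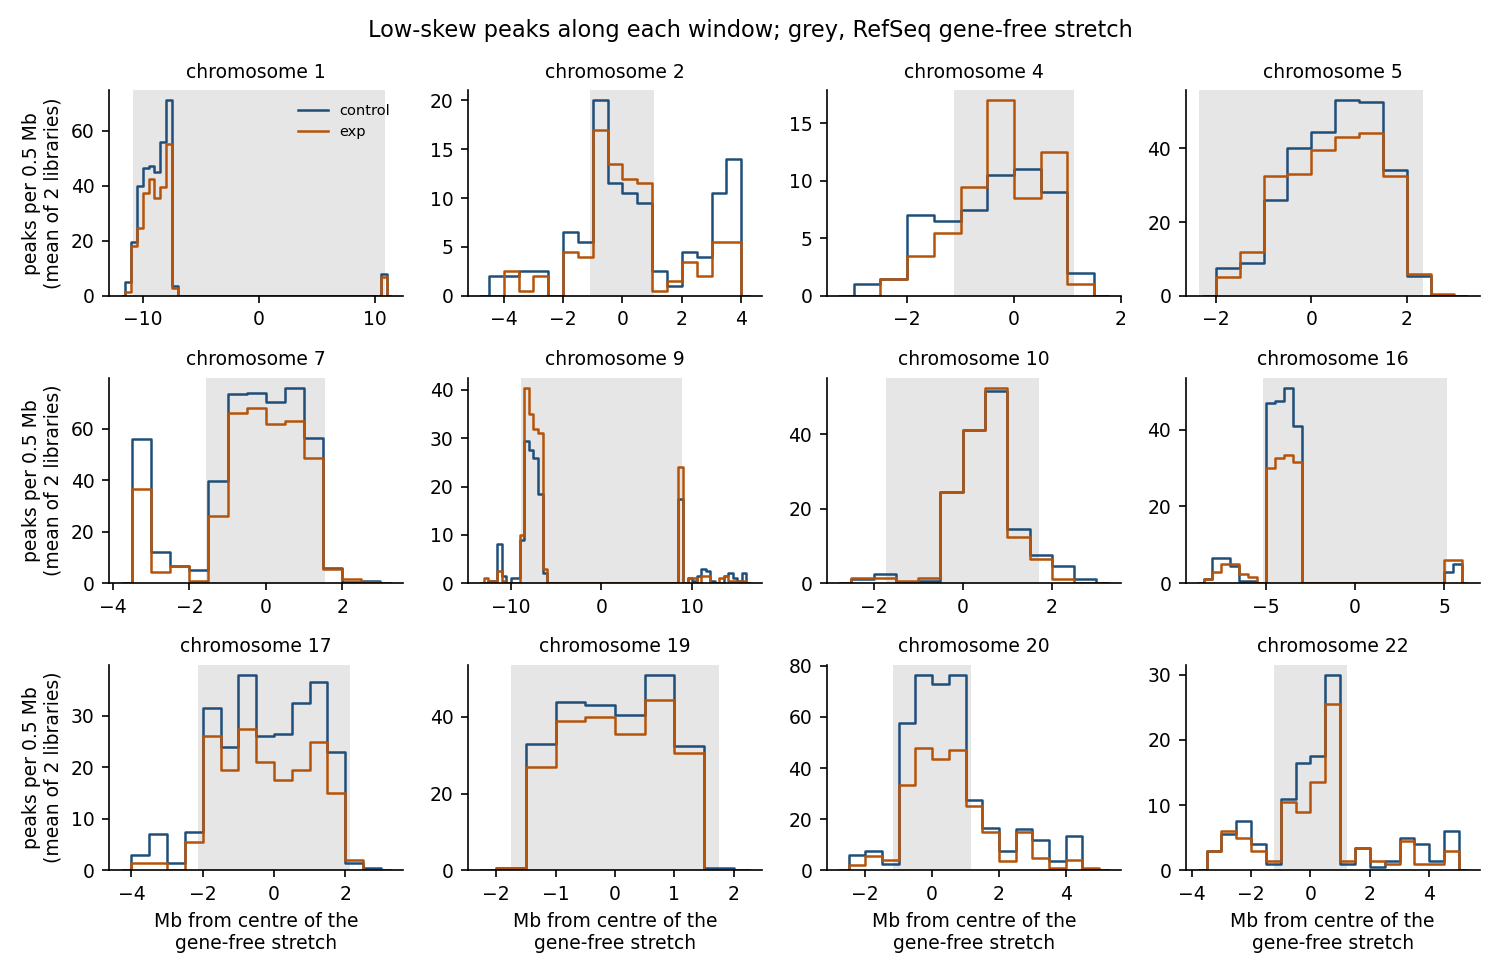
Low-skew peaks per 0.5 Mb (vertical axes, mean of 2 libraries per group) against the distance in Mb from the centre of the window's gene-free stretch (horizontal axes), one panel per chromosome. Grey marks the gene-free stretch. On most chromosomes the peaks fill most of it, while on chromosome 10 they lie mainly above −0.5 Mb. On chromosomes 1, 9 and 16 they crowd at its left end, with fewer at the right end and long spans without peaks between.

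Within the windows they were concentrated. The 10 fullest bins of 1 Mb, of 84 that held any, contained 40.1% of them. The fullest was 59 to 60 Mb on chromosome 7, with 168, 124, 115 and 136 peaks in control 1, control 2, exp 1 and exp 2. The next was 27 to 28 Mb on chromosome 20, with 182, 117, 70 and 110. Both bins lay inside gene-free stretches, and in the chromosome 20 bin both exp libraries were below both controls.

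The low-skew peaks held fewer DRIP reads than input reads, which sets them apart from the rest of the lists. Summed over them, DRIP reads per input read were 0.631 for control 1, 0.602 for control 2, 0.598 for exp 1 and 0.532 for exp 2. Over all other peaks the same ratio was 3.19, 2.71, 2.73 and 2.14, and over strong-skew peaks of the same windows 3.00, 1.77, 1.94 and 1.95. The low-skew peaks were lower than both in every library, by 2.10 ± 0.391 and 1.57 ± 0.538 reads per input read (SD, n = 4; exact sign permutation, p = 0.125 for each).

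In 83.4%, 79.7%, 83.3% and 88.6% of them the DRIP count did not exceed the input count. Of all other peaks this held for 8.68%, 5.78%, 7.25% and 12.3%, and of the strong-skew peaks for 2 in exp 1 and none in the other libraries. The low-skew peaks made up between 58.3% and 61.5% of all such peaks of a library. Nearly all the rest were low-skew intergenic peaks outside the windows. These were 1886 of 1915, 1192 of 1244, 1027 of 1069 and 1394 of 1460 by library. A DRIP count not above input was thus not particular to the windows. For 63 of the low-skew pericentromeric peaks (21, 14, 18 and 10 by library) the deposited DRIP count was 0.

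The median peak tells the same as the sums. A low-skew peak had a median of 17, 15, 13 and 12 DRIP reads and 25, 22, 21 and 24 input reads in control 1, control 2, exp 1 and exp 2. Another peak had 31, 28, 29 and 25 DRIP reads but 7, 7, 7 and 8 input reads. Per kb the median input was 21.9, 20.2, 20.4 and 21.3 reads, against 14.4, 13.9, 13.5 and 15.1 over other peaks (higher in 4 of 4 libraries, exact sign permutation p = 0.125). All input counts come from 1 input library counted over 4 peak lists. The p-values for input in this paragraph thus do not measure a spread between inputs. Summed input per kb was 47.8, 54.8, 60.0 and 55.9 against 22.8, 23.3, 25.9 and 28.9, so some peaks took far more input than the median peak. High input was shared with the strong-skew peaks of the same windows. Their median was 22.5 and 22.7 input reads per kb in control 2 and exp 1, above the low-skew peaks, and slightly below them in the other libraries (2 of 4 each way, exact sign permutation p = 0.5), and their summed input was 72.3, 107, 97.2 and 90.6 per kb, above the low-skew peaks in every library.

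**Figure D3:**
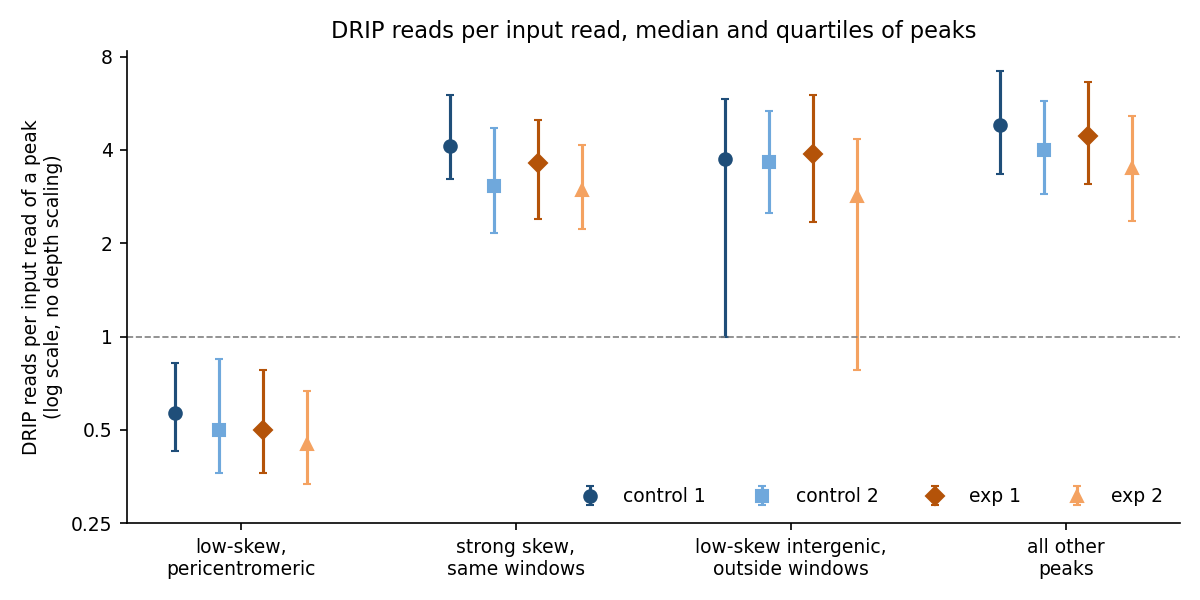
DRIP reads per input read of a peak (vertical axis, log scale, no scaling for depth) in 4 sets of peaks (horizontal axis), as the median with lines from the lower to the upper quartile over peaks, 1 point per library. The low-skew pericentromeric medians lie between 0.450 and 0.568, below the dashed line of equal counts, and those of all other peaks between 3.50 and 4.80.

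Intergenic low-skew peaks outside the windows, which share the skew but not the windows, numbered 26702 and had 2.01, 2.39, 2.31 and 1.59 DRIP reads per input read in control 1, control 2, exp 1 and exp 2. That was above the low-skew pericentromeric peaks in every library (difference −1.49 ± 0.336, SD, n = 4, exact sign permutation p = 0.125). Of these outside peaks 25.7%, 13.9%, 17.4% and 28.7% had a DRIP count no higher than input, and 30.1%, 15.4%, 20.2% and 31.6% lay in gene-free stretches. The windows leave out the centromeres of the other chromosomes. This set may therefore hold pericentromeric peaks, which was not tested. Within the windows, low-skew peaks inside gene-free stretches had 0.568, 0.502, 0.530 and 0.494 DRIP reads per input read, and those elsewhere 2.02, 1.97, 1.71 and 1.35. Inside was lower than elsewhere in 4 of 4 libraries (difference −1.24 ± 0.287, exact sign permutation p = 0.125).

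Between the groups, the number of peaks was compared within each kind. Inside gene-free stretches there were 2858, 1961, 1790 and 2283 low-skew peaks, the groups overlapping (ratio 0.845, exact permutation p = 0.667). Elsewhere in the windows there were 350, 423, 260 and 232, both exp libraries being lower (ratio 0.636, exact permutation p = 0.333). The ratio outside the stretches is near the 0.610 of all other peaks. Whether the ratios differ between the kinds was not tested.

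Between the groups, DRIP reads per input read over the low-skew peaks were lower in both exp libraries than in both controls (0.616 ± 0.0207 and 0.565 ± 0.0469, ratio 0.917, exact permutation p = 0.333). This ratio carries each library's depth. Divided by the same ratio over all other peaks it was 0.198, 0.222, 0.219 and 0.249, and the groups overlapped (ratio 1.12, exact permutation p = 0.667).

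The windows differed in this measure. Chromosome 10 was lowest, at 0.429, 0.342, 0.354 and 0.335 DRIP reads per input read in control 1, control 2, exp 1 and exp 2, and had between 130 and 143 input reads per kb. Chromosome 1 had between 117 and 190 input reads per kb and 0.714, 0.635, 0.693 and 0.653 DRIP reads per input read. Chromosome 22 was above 1 in every library, at 1.44, 1.62, 1.49 and 1.30. Chromosome 2, with 16.8 to 19.5 input reads per kb, the lowest in 3 of 4 libraries, had 1.45, 2.03, 1.53 and 0.981. Chromosomes 2 and 22 were also the windows with the largest share of peaks outside gene-free stretches.

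The skew of the low-skew peaks was small and mostly of 1 sign. Its median was 0.0817, with quartiles of 0.0596 and 0.108, and 91.8% of the peaks were positive, so that G exceeded C on the reference strand. Of all other peaks between 51.8% and 55.0% were positive. The share was 99.4% on chromosome 19 and 77.7% on chromosome 2, and the median ran from 0.0584 on chromosome 10 to 0.123 on chromosome 20. Since skew chose the peaks, these values are a description.

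The bands of larger skew below the limit had more DRIP reads per input read. Summed over libraries the ratio was 0.475 for the 6591 peaks with a skew under 0.1 in size, 0.601 for the 3157 from 0.1 to 0.2, 0.752 for the 256 from 0.2 to 0.3 and 2.25 for the 153 from 0.3 to 0.4. Outside the limit it was 2.66 for the 143 peaks from 0.4 to 0.5 and 2.17 for the 900 above. The share of peaks in gene-free stretches was 93.1%, 85.0%, 27.0% and 3.27% in the bands inside the limit, and 2.10% and 32.2% beyond it. The median peak of the bands had 0.480, 0.550, 2.82 and 3.17 DRIP reads per input read inside the limit, and 4.06 and 3.53 beyond it. The median thus passed 1 in the band from 0.2 to 0.3, where the share in gene-free stretches also dropped, while the summed ratio passed 1 a band later. All of this lay below the limit of 0.4, and the part of position in it was not tested.

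Just inside the limit, a peak of control 1 in DUSP15 on chromosome 20 had a skew of −0.398 with 22 DRIP and 3 input reads, and a peak of control 2 in AC118758.3 had −0.399 with 41 and 18. Just outside, a peak of exp 2 on chromosome 9 had −0.400 with 37 and 2, and a peak of exp 1 on chromosome 10 had 0.403 with 35 and 15. All 4 had more DRIP than input reads.

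**Figure D4:**
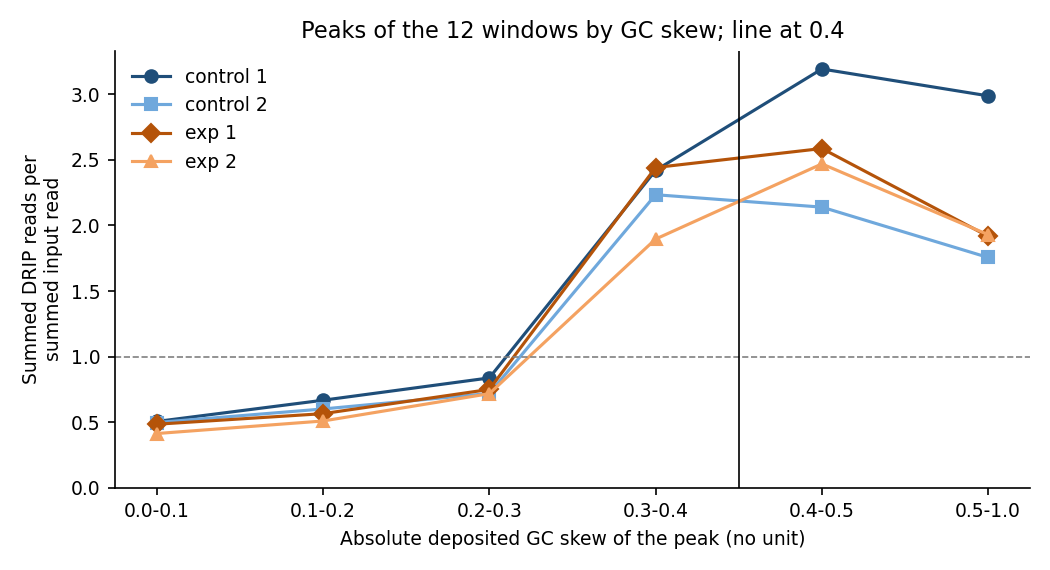
Summed DRIP reads per summed input read (vertical axis, no scaling for depth) of all peaks in the 12 windows, by the size of the deposited GC skew (horizontal axis, no unit), 1 line per library. The vertical line is the limit of 0.4, and the summed ratio passes 1 between the bands 0.2-0.3 and 0.3-0.4 in all 4 libraries.

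The peaks were wide and weakly called. Their median width was 1124, 1004, 979 and 1071 bp in control 1, control 2, exp 1 and exp 2, against 440, 479, 462 and 456 bp for all other peaks (difference 585 ± 79.2 bp, SD, n = 4, exact sign permutation p = 0.125). The fold enrichment deposited by the authors, which is over a local background per the file headers, had medians of 2.98, 2.99, 2.90 and 2.96. The settings of the peak caller are not stated, so whether the input entered that background is not known. It was 3.96, 3.76, 3.72 and 3.74 for other peaks and 4.47, 3.88, 4.06 and 3.95 for the strong-skew peaks. A q of 0.01 or less was reached by 47.5%, 39.7%, 33.3% and 33.4% of the low-skew peaks, and by 70.9%, 61.0%, 54.7% and 58.7% of the others.

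They nevertheless recurred more often. Of the low-skew peaks 64.5%, 71.8%, 74.1% and 70.7% overlapped a peak of another library, against 34.6%, 36.1%, 43.1% and 50.5% of other peaks (higher in 4 of 4 libraries, by 29.2 ± 6.56 percentage points, exact sign permutation p = 0.125). Against strong-skew peaks of the same windows, of which 63.8%, 96.3%, 83.9% and 84.0% were shared, they were not apart: 1 of 4 libraries was higher (exact sign permutation p = 0.25). Among peaks with more DRIP than input reads the difference from other peaks turned to −2.61 points.

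Merging peaks that share at least 1 bp gave 58639 regions, of which 5374 held a low-skew pericentromeric peak. In 5334 of these every peak was one. They were called in 1 library in 57.3%, in 2 in 21.8%, in 3 in 11.3% and in all 4 in 9.56% (514 regions). All regions together were called in all 4 libraries in 3.17%, and 27.6% of those regions were low-skew pericentromeric ones.

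Width went with recurrence. The median region width was 666, 1567, 2709 and 3566 bp for regions in 1, 2, 3 and 4 libraries. Among regions of more than 2000 bp, 26.8% of the low-skew pericentromeric and 27.4% of the other regions were in all 4 libraries. In 2 or more libraries were 81.7% and 76.7% of them. Between 1000 and 2000 bp the shares in all 4 libraries were 6.81% and 14.7%, and those in 2 or more 48.8% and 63.1%. At like width the low-skew regions thus had the higher share only among the widest regions in 2 or more libraries, of these 4 pairs of shares.

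**Figure D5:**
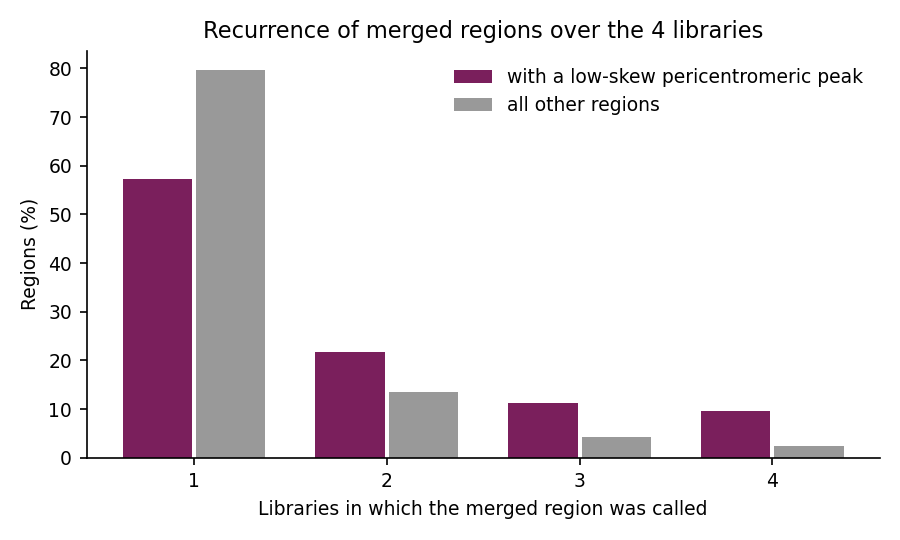
Share of merged regions (vertical axis, %) by the number of libraries in which they were called (horizontal axis), for regions with a low-skew pericentromeric peak and all other regions. Regions called in all 4 libraries make up 9.56% of the former and 2.53% of the latter.

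The most strongly called regions in all 4 libraries lay next to each other on chromosome 1. The region chr1:143200246-143223414, 23169 bp without an assigned gene, held 13908, 12158, 12949 and 12766 DRIP reads and 16860, 16776, 16842 and 16828 input reads in control 1, control 2, exp 1 and exp 2. Its deposited fold enrichment was 5.87, 3.77, 5.23 and 6.12, and its DRIP reads per input read, without scaling for depth, were 0.825, 0.725, 0.769 and 0.759. Control 1 had the most reads and control 2 the fewest, with both exp libraries between them.

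Another 4 of the 10 strongest lay in the same stretch, between chr1:143184831-143195741 and chr1:143262109-143267406. In chr1:143184831-143195741 the DRIP reads were 5692, 4643, 4863 and 4910 and the skew was about 0.214 in every library. In chr1:143244523-143257665 they were 7288, 6169, 6596 and 6425, and the skew was −0.207, −0.209, −0.210 and −0.208. Neighbouring regions of this stretch thus had skews of opposite sign, and in both control 1 was highest and control 2 lowest.

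On the other side of the long gap, chr1:125174055-125183673 had 8490, 7474, 7979 and 7907 DRIP reads over 10279, 9900, 10066 and 10145 input reads, with skews between −0.206 and −0.214. The remaining 4 were smaller. On chromosome 7, chr7:56370580-56374685 had 2549, 2335, 2377 and 1861 DRIP reads, exp 2 being lowest. On chromosome 17, chr17:26881326-26885673 had 1755, 1603, 1517 and 1572, and both exp libraries were lower in these unscaled reads. Scaled and per base of peak, its log2 ratio of exp over control was 0.045 (SE 0.188, adjusted p = 0.993 in the edgeR test below). On chromosome 5, chr5:49612306-49618947 had 1305, 1468, 1484 and 1345, and chr5:49642309-49646089 had 747, 733, 834 and 743. The groups overlapped in both. None of the 10 had an assigned gene.

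For regions with exactly 1 peak in each library, the DRIP reads per base of peak were compared with edgeR's quasi-likelihood test over all 1370 such regions. At an adjusted p of 0.05, 0.00% of these regions were called, and none of the 285 low-skew pericentromeric ones. At an unadjusted p of 0.05 edgeR gave 29 of the 285, of which 18 were lower in exp, against 7.01% of all 1370. DESeq2 called none and gave 7 of the 285 unadjusted, and 21 of all 1370. The median log2 ratio of exp over control was 0.041 among the 285, with quartiles of −0.27 and 0.28, and 0.0093 among all. Such regions had to be called in every library, so one that a group lost cannot be among them.

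With relative log expression factors in place of TMM, 4 of the 285 passed, and 6 of all 1370. The region chr9:60610905-60615744 had 61, 29, 127 and 151 DRIP reads in control 1, control 2, exp 1 and exp 2, both exp libraries being higher. Its log2 ratio was 1.04 (SE 0.241, adjusted p = 0.0832 in the main edgeR test). The region of FAM230F, chr22:18892458-18896361, which holds both FAM230F promoters printed above, had 90, 35, 26 and 14 reads, both exp libraries being lower (log2 ratio −1.27, SE 0.326, adjusted p = 0.0832). FAM230F is a long non-coding RNA of a family with several near-identical copies on chromosome 22, so its reads may be shared with them.

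In the other 2 regions control 1 stood alone. The region chr10:40001391-40004635 had 103, 7, 8 and 10 reads (log2 ratio −1.91, SE 0.479, adjusted p = 0.0832) and chr17:25071730-25074393 had 117, 18, 21 and 21 (log2 ratio −1.28, SE 0.359, adjusted p = 0.162). Control 2 was at the level of the exp libraries in both.

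Of the regions 271 were control-only, that is called in both controls and in no exp library, or 5.04% of the 5374, beside 3.83% of all regions. Exp-only regions were 120, or 2.23%, beside 1.30% of all regions. Both shares were above those of all regions, without a test of the difference. Pairs across the groups were often above too. Regions in control 1 and exp 2 alone were 5.90%, beside 2.49% of all regions, and in control 1 and exp 1 alone 3.83%, beside 2.12%. Control 2 and exp 2 gave 2.88%, beside 1.83%, and control 2 and exp 1 gave 1.90%, beside 2.70%. A higher share was thus not particular to regions of a single group. At equal list lengths the control-only and exp-only counts were 61 and 234. The shares of all regions at that cut were not computed, so these counts are no result about the low-skew regions.

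In the 6 control-only regions with the best q the DRIP count was above the input count in both controls. In chr7:56210840-56211547 control 1 and control 2 had 100 and 117 DRIP reads over 24 and 43 input reads. In chr20:25310213-25311001, within ABHD12, they had 48 and 42 over 12 and 11, and in chr9:62799247-62799996, at the non-coding gene LINC01410, 111 and 106 over 35 and 39. The other 3 were chr20:29877773-29878516, chr16:46992930-46993520 and chr5:49971866-49974336, with DRIP reads from 30 to 204.

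Among the 6 exp-only regions, chr7:56981959-56982674 had 46 and 21 DRIP reads in exp 1 and exp 2 over 4 and 4 input reads. The region chr2:96614461-96615212 in KANSL3, which encodes a subunit of the NSL histone acetyltransferase complex, had 31 and 32 over 5 and 5. Both were above input, and KANSL3 had another low-skew peak in control 1. In chr22:13250472-13253654 the DRIP reads were 53 and 77 over 113 and 165, and in chr10:41521500-41524436 they were 15 and 18 over 50 and 63. These, like most peaks of gene-free stretches, were below input.

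Genes were assigned to few of the peaks. The file classes put 96.9%, 95.3%, 96.9% and 98.0% of the low-skew peaks between genes, against 46.9% to 54.0% of other peaks. Position chose the peaks, and strong-skew peaks of the same windows were nearly as often between genes, at 92.4%, 93.3%, 92.7% and 93.8% (low-skew peaks higher in 4 of 4 libraries, by 3.76 ± 1.15 percentage points, exact sign permutation p = 0.125). The 326 peaks with a gene named 124 genes, of which 74 were protein-coding, 48 long non-coding and 2 immunoglobulin segments. By library 61, 68, 46 and 35 genes were named, and the genic peaks numbered 99, 112, 64 and 51. Both exp libraries lay below both controls (ratio of peaks 0.545, exact permutation p = 0.333), as they did for the genic peaks among all other peaks (ratio 0.549, p = 0.333).

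A neighbouring group of genes on chromosome 7 carried the most. PSPH encodes phosphoserine phosphatase, the last enzyme of serine synthesis, and had 5, 13, 6 and 7 low-skew peaks in control 1, control 2, exp 1 and exp 2. Over them lay 603, 1637, 661 and 633 DRIP reads and 258, 765, 277 and 365 input reads. SUMF2, a paralogue of the sulfatase-activating enzyme, had 7, 6, 5 and 4 peaks with 697, 813, 549 and 339 DRIP reads. For PSPH control 2 alone was high, while for SUMF2 both exp libraries were below both controls in unscaled reads.

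PHKG1, the catalytic subunit of muscle phosphorylase kinase, had 4, 4, 2 and 0 peaks, with 416, 528 and 288 DRIP reads in the libraries that had any. PSPH, SUMF2 and PHKG1 had 66.9 to 96.8 input reads per kb over these peaks, more than ABHD12, LINC00273, FER1L5 and FRYL below. PSPH has pseudogene copies elsewhere, so its reads may be shared with them. Input was also high at the nearby CCT6A, with 97.5 reads per kb in control 2 and 90.0 in exp 1, and at CHCHD2, with 84.1 in exp 1. High input was thus shared by neighbouring genes, and its cause was not tested.

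Low-skew peaks in all 4 libraries were assigned to 8 of the 124 genes, beside 10.9% of all genes with a peak. The protein-coding ones were PSPH, SUMF2, ABHD12, FER1L5 and FRYL, and the non-coding ones LINC00273, AC118758.3 and FAM230F. ABHD12, a lipase for lysophosphatidylserine, had 98, 94, 66 and 30 DRIP reads over 21, 24, 23 and 8 input reads. LINC00273 on chromosome 16 had 118, 125, 54 and 56 over 20, 24, 9 and 9, in a peak that the files class as promoter. The peak of control 2 alone overlapped its RefSeq promoter. Whether copies of this sequence elsewhere share its reads was not tested. For ABHD12 and LINC00273 the unscaled DRIP reads were fewer in the exp libraries, and DRIP exceeded input in every library. The exp peaks of LINC00273 were also narrower, and per base of peak the edgeR log2 ratio of exp over control was 0.091 (SE 0.239, adjusted p = 0.981). FER1L5, a ferlin, had 49, 45, 42 and 25 DRIP reads, and FRYL 23, 31, 19 and 19.

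Another 13 protein-coding genes had a low-skew peak in 3 libraries. They include GINS1, a subunit of the replicative helicase, with 35, 87 and 40 DRIP reads in control 1, control 2 and exp 1, and the centrosomal gene NINL, with 42, 35 and 55 in control 2, exp 1 and exp 2. CNNM4, a magnesium transporter, had 162, 187 and 82 in control 1, control 2 and exp 1. The others were TMEM127, FAM178B, SRGAP2C, KANSL3, ATP6V1E1, TTLL9, LMAN2L, ANKRD36C, GPT2 and PHKG1. CNNM4, NINL, SRGAP2C and GPT2 had a peak of some kind in all 4 libraries.

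In both controls and neither exp library were 12 of the 124 genes, beside 8.52% of all genes with a peak. The 9 protein-coding ones were BCL2L13, OCIAD1, AL627230.1, FAM72B, COX4I2, MICAL3, ENTPD6, HDHD5 and CNNM3. BCL2L13, a mitochondrial member of the BCL2 family, had 49 and 38 DRIP reads in control 1 and control 2, and MICAL3 had other peaks in all 4 libraries. The reverse held for 1 gene, the non-coding FP326651.2, with 30 and 19 DRIP reads in exp 1 and exp 2, beside 1.37% of all genes.

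Of the 1285 RefSeq genes that touch the windows, 94 (7.32%) had a low-skew peak, and of the 180 protein-coding ones 71 (39.4%). Gene families known for pericentromeric copies are given beside these shares. None of 9 FRG1 copies and none of 82 small RNA copies in the windows had one. The POTE ankyrin genes had 1 of 2 (POTEH), the ANKRD20A, ANKRD26, ANKRD30 and ANKRD36 families 1 of 11 (ANKRD36C), the NBPF, NOTCH2NL and SRGAP2 copies 1 of 4 (SRGAP2C), and the FAM27, FAM74, FAM95 and CNTNAP3 copies of chromosome 9 2 of 30 (FAM27C and CNTNAP3). Immunoglobulin light chain segments had 2 of 80 (IGKV1-39 and IGKV3-15), and zinc finger genes 4 of 20 (ZNF2, ZNF337, ZNF337-AS1 and ZNF33B).

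The lists of genes at the arm side of the windows, which are mostly protein-coding, are best set beside the protein-coding share. The genes with a low-skew peak were 8 of 22 genes of 22q11 (with ATP6V1E1, a subunit of the vacuolar proton pump, in 3 libraries), 9 of 22 of 20q11 (TTLL9 in 3 libraries, HM13, COX4I2 and FOXS1 among the rest) and 4 of 15 of 17p11 to q11 (TMEM11, KCNJ18, KCNJ12 and DHRS7B). By library 4, 6, 3 and 2 of the 22q11 genes had a peak, both exp libraries being below both controls, and 3 of the 8 were control-only.

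Promoter peaks were fewest. They numbered 29, 16, 10 and 6 in control 1, control 2, exp 1 and exp 2, both exp libraries being below both controls (ratio 0.356, exact permutation p = 0.333). Among all other peaks the ratio was 0.393, from 1767 and 1328 to 670 and 548. Of the promoters printed above, LOC107987246 lay under peaks of 71, 84 and 4 DRIP reads in control 1, control 2 and exp 1 and under none in exp 2. LOC124901639 lay under peaks of 43, 200 and 203 DRIP reads in the same 3 libraries. The peaks of control 2 and exp 1 there spanned nearly the same stretch, and that of control 1 was shorter.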

How the data were processed

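Per the submitters' processing notes, FastQC, cutadapt, Bowtie2, MACS2 and DiffBind were used with GRCh38 (hg38). Their versions and parameters are not stated in these notes. The authors deposited 4 peak lists, with peaks called separately for each DRIP library. Per the file headers, the read counts are whole reads of the DRIP and input libraries over each peak, not normalized. The fold enrichment is a ratio per peak over a local Poisson background, per the file headers. The p-values and q-values were deposited by the authors on a log scale and were read as plain −log10, although the headers state a further factor. The GC skew, a score from the authors, has no stated formula; it was taken as (G − C)/(G + C).

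Members and gene lists were chosen with earlier results of these data known. Single values per library were compared by exact two-sided permutation tests over the 4 libraries, and sets of peaks by exact two-sided sign permutation of the within-library differences; these p-values were not adjusted, and 2 libraries a group limit every comparison. Regions are the union of peaks with at least 1 bp in common. DRIP counts of regions with exactly 1 peak in each library were tested with edgeR 4.0.16 (quasi-likelihood test, TMM factors from width-scaled counts, log peak width as offset, Benjamini-Hochberg over all 1370 regions) in R 4.3.3, with DESeq2 1.42.0 as an alternative. On simulated counts over all 1370 regions edgeR called 96% of 4-fold and 59% of 2-fold changes and 3 of 1170 unchanged regions. The changed regions were drawn from all 1370, with a single common dispersion. These rates are therefore not those of the low-skew regions, many of which had few reads. The other values came from Python 3.11.15 with pandas 2.3.3.

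Gene-free stretches and promoter sequences came from RefSeq tables of GRCh38.p14; of the 124 gene names 92 were found there. Regions were named by a rule: the 10 in all 4 libraries with the highest lowest −log10 q, the 6 best control-only and exp-only, and the 5 with the most input reads, which are among the first 10. Genes named were protein-coding ones in at least 3 libraries or in 1 group only, and up to 4 per list, and promoters those overlapped in the most libraries. The non-coding genes, FAM230F apart as a promoter, the 1 Mb bins, DUSP15, CCT6A, CHCHD2, the 12-base word and the regions named from alternative edgeR settings were chosen after their values were seen. Alternatives were stricter q limits, equal list lengths, peaks with more DRIP than input reads, a skew limit of 0.3, whole peaks inside windows, leaving out the chromosome 7 window, 100 bp overlap, and each library left out. Those on gene-free stretches and on outside intergenic peaks were added after seeing the data. The numbers of the replicates did not pair the libraries: the correlation of control 1 minus control 2 with exp 1 minus exp 2 was −0.0740 over 1370 regions. The synthetic spike-in and the IgG aliquot named in the protocols were not analysed here.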

Additional observations from a re-analysis of the deposited data

How the results depend on the processing

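When each list was cut to its 14354 best peaks the ratio of exp over control turned to 1.85 for peak number, 1.34 for bases and 1.52 for low-skew peaks per strong-skew peak, and 61 regions were control-only and 234 exp-only. Control-only and exp-only regions numbered 140 and 35 at −log10 q of at least 2, 25 and 6 at 5 or more, and 43 and 7 among peaks with more DRIP than input reads. The shares of all regions under these cuts were not computed, so these region counts are no result about the low-skew regions. At −log10 q of 5 or more the difference from strong-skew peaks turned to 69.7 input reads per kb and −0.479 points intergenic. Among peaks with more DRIP than input reads it turned to −129 bp in width, 0.343 DRIP reads per input read and −11.6 points intergenic, and the difference from all other peaks turned to −1.33 input reads per kb and −2.61 points in sharing. These alternatives keep fewer peaks by construction; beyond that the cause was not tested. Leaving out 1 library gave ratios of 0.712 to 0.957 for peak number, 0.645 to 1.00 for bases (the highest without control 1) and 0.657 to 1.22 for low-skew per strong-skew peaks (the highest without control 2). It gave 420 to 1458 control-only and 197 to 882 exp-only regions, since a group of 1 library asks less. Shares of all regions were not computed for these either. With exp 1 left out the edgeR log2 ratio of chr10:40756956-40760420 was 1.34, against 0.989 with all libraries. edgeR with relative log expression factors called 4 of the 285 low-skew regions, and 6 of all 1370. With the replicate block edgeR called 0 and gave 17 of the 285 at an unadjusted p of 0.05, and 67 of all 1370. The block changed no call. The sign of the log2 ratio was unstable for 2 of the 9 named regions tested: for the chromosome 7 region it was −0.021, then 0.055 without the width offset and −0.15 to 0.13 with 1 library left out, and for the chromosome 17 region 0.045, then −0.084 to 0.19. Of the alternative values of results that answer a comparison, 12 reversed and 18 moved in number, as given above. The other 210 kept their direction or stayed close in number. The exact permutation tests could not reach a p of 0.05 with these libraries, so no change of side was possible for them. The median of 12 to 17 DRIP reads limits any single peak.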
